A study of Homo sapiens with 5 samples.

Results

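Core histone coding sequences were examined as 62 transcript rows out of the 182398 listed for each library, of which 93916 carry a length. A row was taken where it lies in a stretch of 899 consecutive rows, has the coding length of a core histone (103 residues and the stop codon for H4, 126 for H2B, 128 to 130 for H2A and 136 for H3) and sums to at least 100 counts over the 5 libraries. The rows were thus chosen by their summed counts as well as by length and position, so their level as a set is a description and carries no test. The lowest sums inside the minimum were 238 (uc063mck.1), 245 (uc003nhi.4) and 376 (uc063lyi.1), and 1 row of a core histone length, uc063mla.1, lay outside it with 17. There were 15 H2A, 21 H2B, 11 H3 and 15 H4 rows. No gene symbol accompanies the identifiers, so a row is called by its class and its identifier and no histone gene is named.

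The data are ribosome profiling counts from the human kidney-derived line HEK293T after knockout of a gene of queuosine metabolism: 1 library lacking QTRT1, 2 lacking QTGAL and 2 lacking QTMAN. Where values of 2 libraries are given as a pair, replicate 1 comes first. Queuosine is a modified base in the wobble position of the tRNAs that carry tyrosine, histidine, asparagine or aspartate; QTRT1 belongs to the enzyme that inserts it, and QTGAL and QTMAN add galactose and mannose to it in the tRNAs for tyrosine and aspartate. Unedited cells were not analysed here, every library is from the same line, and the labels name neither clones nor separate cultures. The p-values therefore reflect how far these libraries scatter, possibly for technical reasons, and replicate numbers are names only. RNA levels were not analysed here, so more mRNA and more ribosomes per mRNA cannot be told apart, nor can fewer cells making histones and less histone mRNA per cell.

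H2A, H2B, H3 and H4 are the proteins around which DNA is wound in the nucleosome, and the linker histone H1 binds the DNA as it enters and leaves. Most of their genes are small, lack introns, lie in clusters, and are expressed in S phase, when new DNA has to be packaged; their mRNAs end in a stem-loop in place of a poly(A) tail. Many copies encode nearly or exactly the same protein. A short footprint can thus match several copies, and how the counting treated such footprints is not given in the sources used here, so the split of counts between rows of a class is uncertain.

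The row counts per class were set against the RefSeq annotation of GRCh38.p14, which lists 12 H2A, 15 H2B, 10 H3 and 12 H4 protein-coding genes with cluster symbols on chromosome 6. Rows of the same length at most 5 rows apart whose counts differed by less than 10% in every library were joined, as transcripts of one gene would be. This gave 13 groups of H2A rows, 15 of H2B, 10 of H3 and 11 of H4. Within the members, 5 sets of rows (12 rows in all) had identical counts in all 5 libraries, so the 62 rows hold 55 distinct sets of counts. The first 3 members stand apart: rows 56529 (uc032wlj.2, H4 length), 56658 (uc063lyi.1) and 56834 (uc063mck.1, both H2A length) precede the other 59, which lie between rows 56990 and 57220. Their mean levels were 12.7, 3.99 and 2.57 counts scaled to 1000000 counts of the library (CPM). Without them the groups number 11 for H2A and 10 for H4. Whether these 3 rows are histones at all was not tested, as length and position were the only evidence.

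The libraries held between 12002044 (QTGAL replicate 2) and 25291912 counts (QTMAN replicate 2). Core histone rows made up 1.02% of the counts of the QTRT1 library, 0.859% and 1.19% in QTGAL replicates 1 and 2, and 0.797% and 1.12% in QTMAN replicates 1 and 2. With 1 row per group of near-identical rows these shares were 0.751%, 0.626%, 0.875%, 0.585% and 0.820%, in the same library order. The library totals were left unchanged for this, with near-identical rows outside the members not joined. The values below are CPM unless a sentence says otherwise.

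The summed level of each class followed the same order of libraries. H2B, which pairs with H2A, summed to 4500 CPM in QTRT1 knockout, 3728 and 5077 CPM in QTGAL replicates 1 and 2, and 3372 and 4750 CPM in QTMAN replicates 1 and 2. H2A summed to 2253 CPM in QTRT1 knockout, 2032 and 2747 CPM in the 2 QTGAL libraries and 1864 and 2718 CPM in the 2 QTMAN libraries. H4, which pairs with H3, summed to 2237 CPM, then 1826 and 2538 CPM, then 1776 and 2370 CPM. In all 4 classes QTGAL replicate 2 was highest, followed by QTMAN replicate 2, QTRT1, QTGAL replicate 1 and QTMAN replicate 1. H3 summed to 1252 CPM in QTRT1 knockout, 1009 and 1541 CPM in the 2 QTGAL libraries and 958 and 1351 CPM in the 2 QTMAN libraries. The 2 QTGAL libraries enclosed the QTRT1 value in every class, and so did the 2 QTMAN libraries.

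**Figure D1:**
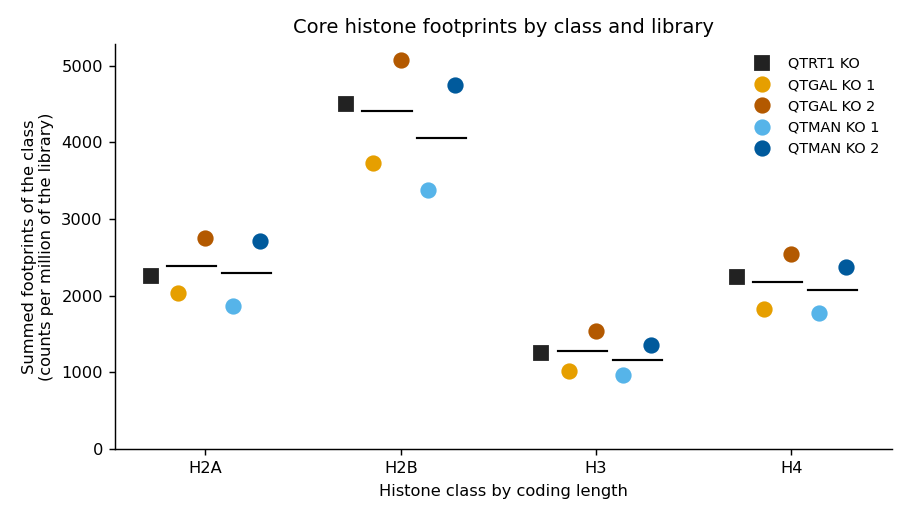
Summed footprints of each core histone class (y axis, CPM, from 0) in the 5 libraries; squares are QTRT1 knockout, circles the replicates of QTGAL and QTMAN knockout, and black lines the means of their 2 libraries. In each class the replicates of a genotype lie farther apart than the means of QTGAL and QTMAN knockout.

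The 2 libraries of one genotype differed more than the genotypes did. Over all 62 rows the sum was 10249 ± 2339 CPM with QTGAL knocked out and 9580 ± 2276 CPM with QTMAN knocked out (SD, n = 2 each), against 10241 CPM in the QTRT1 library. QTGAL replicate 2 stood at 1.38 times replicate 1, and QTMAN replicate 2 at 1.40 times replicate 1. On the log2 scale these differences were 0.47 and 0.49, whereas the means of the 2 sugar transferase knockouts lay 0.10 apart and QTRT1 knockout differed from the mean of both by 0.07. By class the ratio of replicate 2 to replicate 1 in QTGAL knockout was 1.35 for H2A, 1.36 for H2B, 1.53 for H3 and 1.39 for H4. In QTMAN knockout it was 1.46 for H2A, 1.41 for H2B, 1.41 for H3 and 1.33 for H4. The smallest two-sided p that an exact permutation of 2 against 2 libraries allows is 0.3333, and no p is given for these sums.

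This difference between replicates ran through most rows. In QTGAL knockout 59 of the 62 rows were higher in replicate 2 than in replicate 1, with a median log2 difference of 0.44 (0.5 added to each count). In QTMAN knockout 58 of 62 were higher in replicate 2, with a median of 0.49. Over all 48695 rows of at least 100 counts, 44.7% and 41.8% were higher in replicate 2, with medians of -0.041 and -0.053. Rows of the same lengths elsewhere in the tables, 860 in number, had medians of -0.075 in QTGAL and -0.10 in QTMAN knockout. Replicate 2 was higher in both genotypes for 57 of the 62 rows (91.9%), against 18.1% of the 860 rows and 21.5% of the 48695. A log2 difference of at least 0.3 in both was found for 47 members (75.8%), against 4.30% and 3.57%. The 860 rows hold 2 runs in which core histone lengths of at least 3 classes lie at most 10 rows apart, looked for after the values were seen, and these rows shifted like the members. Between rows 9368 and 9390, 16 rows of all 4 classes had medians of 0.40 in QTGAL and 0.50 in QTMAN knockout. All 16 were higher in replicate 2 of both. The H4 rows among them fall into sets with identical differences, so the 16 are not separate observations. Between rows 15121 and 15124, 3 rows had medians of 0.42 and 0.73, and all 3 were higher in replicate 2 of both. These 19 rows account for 17 of the 37 rows elsewhere that reached 0.3 in both, and without them the share is 2.38% of 841 rows. The difference between replicates is therefore not particular to the members. The 62 rows share libraries and footprints and are not independent of each other, so these shares are a description.

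**Figure D2:**
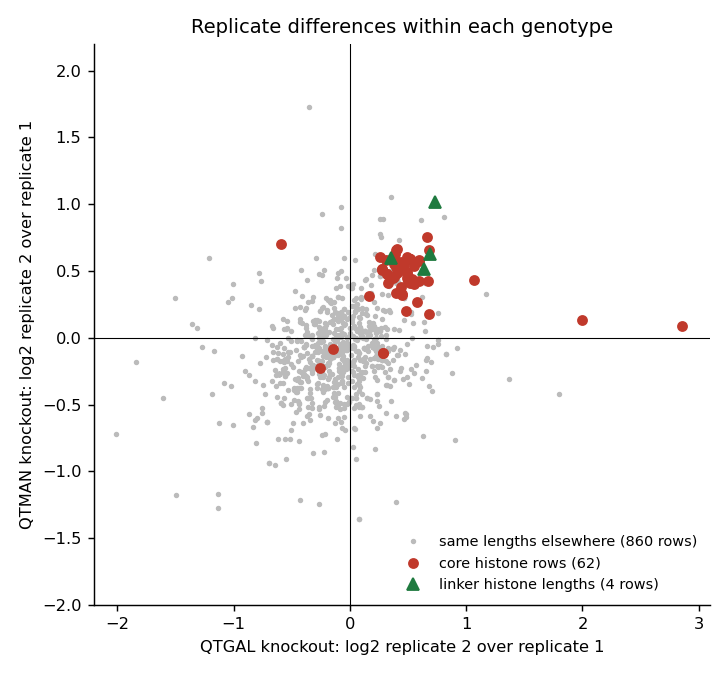
Log2 ratio of replicate 2 to replicate 1 in QTGAL knockout (x axis) and in QTMAN knockout (y axis) for the 62 core histone rows (circles), 4 rows of linker histone length (triangles) and 860 rows of the same lengths elsewhere (dots), of which 2 lie outside the axes. Of the core histone rows 57 lie above 0 on both axes, as do all 4 linker rows, while the dots are centred near 0 and 19 of them, in 2 runs of neighbouring rows, lie among the circles.

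By class, replicate 2 was higher in both genotypes for 14 of 15 H2A, 21 of 21 H2B, 9 of 11 H3 and 13 of 15 H4 rows. Of the first 3 members, uc032wlj.2 and uc063lyi.1 went the other way and uc063mck.1 did not, at 2.47 and 2.75 CPM in QTGAL replicates 1 and 2 and 2.12 and 2.65 CPM in QTMAN replicates 1 and 2. In uc032wlj.2 the values were 13.2 CPM in QTRT1 knockout, 12.4 and 10.4 CPM in QTGAL replicates 1 and 2, and 14.8 and 12.7 CPM in QTMAN replicates 1 and 2, so replicate 2 was the lower one in both genotypes. Without these 3, 56 of 59 rows were higher in replicate 2 of both. Among all 62 rows, 36 were highest in QTGAL replicate 2, 13 in QTMAN replicate 2 and 11 in the QTRT1 library, and 41 were lowest in QTMAN replicate 1. In that order these were 58.06%, 20.97%, 17.74% and 66.13% of the members. Over all rows of at least 100 counts the shares were 18.52%, 10.61%, 26.24% and 19.02%. The QTRT1 library was thus highest less often among the members than over all rows. The exact order of libraries seen in the class sums was met by 20 rows (32.3%), against 0.700% of all rows of at least 100 counts. That order was read from the sums of these same rows, so this count is not separate evidence.

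The rest of the stretch moved less than the histones. All rows of the 899 that have neither a core nor a linker histone length summed to 2024 CPM in QTRT1 knockout, 2032 and 2155 CPM in the 2 QTGAL libraries and 1984 and 2100 CPM in the 2 QTMAN libraries. Here too both replicates numbered 2 were above both numbered 1, but the 5 values span only 1984 to 2155 CPM. Of the 185 such rows and rows of linker length with at least 100 counts, 45.9% were higher in QTGAL replicate 2 and 32.4% in QTMAN replicate 2 than in the other replicate.

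Linker histone H1 was followed through rows of the same stretch with its known coding lengths, of which 4 held at least 100 counts. The row uc003nfw.4, of 213 residues, stood at 968 CPM in QTRT1 knockout, 622 and 1003 CPM in QTGAL replicates 1 and 2, and 591 and 912 CPM in QTMAN replicates 1 and 2. The row uc003ngq.5, of 219 residues, stood at 843 CPM, then 573 and 892 CPM, then 575 and 820 CPM. In both, the QTRT1 library and the replicates numbered 2 were above the replicates numbered 1. The row uc003nhd.4, of 221 residues, stood at 114 CPM in QTRT1 knockout, 116 and 193 CPM in the 2 QTGAL libraries and 95.9 and 194 CPM in the 2 QTMAN libraries, so here the QTRT1 library was with the lower ones. The row uc003njx.4, of 226 residues, was lowest in level, at 28.5, 17.4, 22.2, 15.1 and 22.8 CPM in the same order of libraries. None of the 4 was called in either comparison of genotypes (edgeR quasi-likelihood test, smallest adjusted p = 0.391, for uc003njx.4 in QTRT1 knockout).

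**Figure D3:**
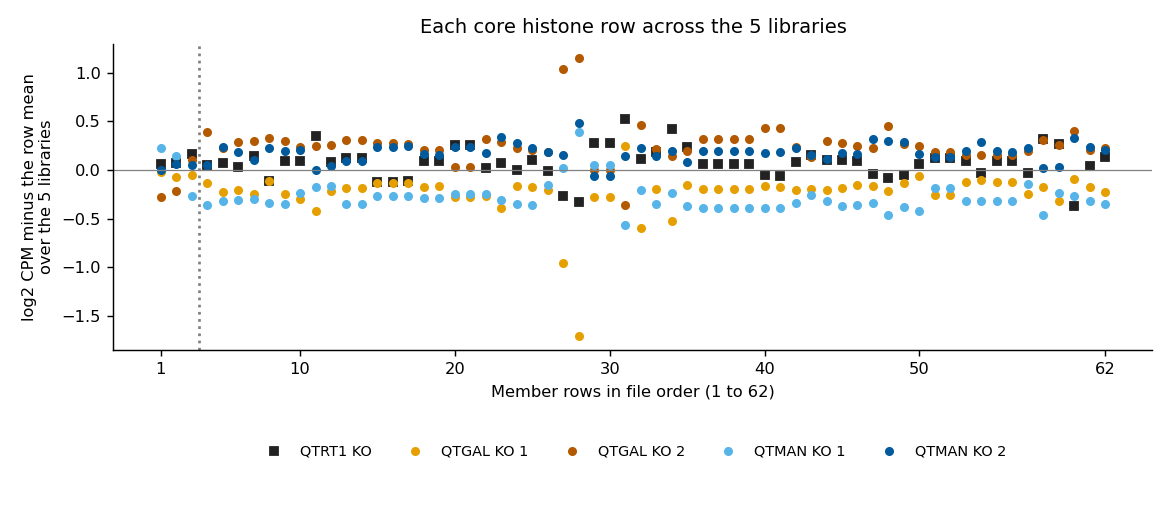
Log2 CPM of each of the 62 core histone rows in file order (x axis) minus its mean over the 5 libraries (y axis); squares are QTRT1 knockout, circles the other libraries, and the dotted line follows the first 3 rows. The replicates numbered 2 lie above those numbered 1 for most rows after the line, and rows 27 and 28 spread most.

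Rows of a class differed widely in level. Per codon, the median over H2B rows was 1.80 CPM per codon, with 0.266 to 3.95 from the lowest to the highest. H4 rows had a median of 1.56 CPM per codon (0.0447 to 2.60) and H2A rows one of 1.26 (0.0199 to 2.21). H3 rows had the lowest median, 0.331 CPM per codon, with 0.0197 to 3.94. Of the 62 rows, 24 were in the densest 1% of the rows of at least 100 counts, at 1.62 CPM per codon or more, and 49 in the densest 5%. The highest H3 row held 44.0% of the counts of its class, whereas the highest rows of H2A, H2B and H4 held 12.4%, 11.7% and 12.5% of theirs.

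In the highest row of each class QTGAL replicate 2 was the highest library, as in the class sums. The highest H3 row, uc003nfs.2, stood at 587 CPM in QTRT1 knockout, 448 and 657 CPM in QTGAL replicates 1 and 2, and 432 and 573 CPM in QTMAN replicates 1 and 2. The highest H2B row, uc063mja.1, stood at 533 CPM, then 432 and 609 CPM, then 399 and 537 CPM. In both rows QTMAN replicate 1 was lowest. The highest H2A row, uc003niw.4, stood at 303 CPM in QTRT1 knockout, 249 and 336 CPM in the 2 QTGAL libraries and 226.8 and 335 CPM in the 2 QTMAN libraries. The highest H4 row, uc003ngi.4, stood at 284 CPM in QTRT1 knockout, 231 and 321 CPM in the 2 QTGAL libraries and 240 and 275 CPM in the 2 QTMAN libraries. In the H4 row the lowest library was QTGAL replicate 1, and the QTRT1 library was above both QTMAN libraries. The lowest H3 row, uc003nhi.4, stood at 3.52 CPM in QTRT1 knockout, 1.83 and 2.92 CPM in the 2 QTGAL libraries and 2.23 and 3.0 CPM in the 2 QTMAN libraries, on 35 to 76 counts a library. The lowest H2A row, uc063mck.1, stood at 2.87 CPM in QTRT1 knockout, 2.47 and 2.75 CPM in the 2 QTGAL libraries and 2.12 and 2.65 CPM in the 2 QTMAN libraries.

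Set against the histone sum of the same library, most H2A, H2B and H4 rows kept their share, and most H3 rows did not. Each row's log2 ratio to the sum was centred on its mean, and its range over the 5 libraries was taken. That range was under 0.3 in 43 of the 48 rows with a mean of at least 50 CPM, with a median of 0.19, and it had a median of 0.63 in rows below 50 CPM. In H3 it was under 0.3 in 2 of 11 rows, 2 of the 5 at 50 CPM or more, with a class median of 0.52. That level was reached by 12 of 15 H2A, 19 of 21 H2B and 12 of 15 H4 rows. At 50 CPM or more the median range was 0.33 in H3, against 0.23 in H2A, 0.17 in H2B and 0.14 in H4. Below 50 CPM it was 0.58 in H3, against 0.94, 0.85 and 1.08, so part of the class contrast goes with level. The H3 rows uc003nhg.2 and uc003nka.4 ranged over 0.59 and 0.58 at means of 95.3 and 83.0 CPM. The smallest range was 0.031, in the H4 row uc003nfr.4, at 187 CPM in QTRT1 knockout, 159 and 223 CPM in the 2 QTGAL libraries and 148 and 207.97 CPM in the 2 QTMAN libraries.

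An adjacent H2B and H2A row departed most from the rest; they were singled out after their values were seen. The H2A row uc003nha.3 stood at 21.2 CPM in QTRT1 knockout, 8.18 and 59.2 CPM in QTGAL replicates 1 and 2, and 35.0 and 37.2 CPM in QTMAN replicates 1 and 2, a 7.24-fold span on 192 to 941 counts. The H2B row before it, uc003ngz.5, which has the smallest sum of counts of its class, stood at 26.1 CPM, then 16.3 and 64.8 CPM, then 31.9 and 35.1 CPM, a 3.98-fold span. In both the 2 QTGAL libraries were the lowest and the highest of the 5, and the 2 QTMAN libraries were close to each other. Over all 62 rows the median span between the highest and lowest library was 1.51-fold.

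The makeup of the histone footprints by class varied little. H2A made up 22.0% of the core histone counts in QTRT1 knockout, 23.6% and 23.1% in QTGAL replicates 1 and 2, and 23.4% and 24.3% in QTMAN replicates 1 and 2. H2B made up 43.9% in QTRT1 knockout, 43.4% and 42.7% in the 2 QTGAL libraries and 42.3% and 42.4% in the 2 QTMAN libraries. The QTRT1 library thus had the lowest share of H2A and the highest of H2B. The ratio of H2A to H2B counts was 0.501 in QTRT1 knockout, 0.543 ± 0.00287 in QTGAL and 0.563 ± 0.0137 in QTMAN knockout (SD, n = 2 each). With 1 row per group of near-identical rows it was 0.634 in QTRT1 knockout against 0.672 to 0.718 in the others. The QTRT1 share was the lowest of the 5 libraries in 8 of 15 H2A rows and in 2 of 21 H2B rows. Over all 62 core histone rows it was the lowest in 12. Of the 8 H2A rows, uc003ngm.4, uc003ngo.4 and uc063mgg.1 belong to the same group of near-identical rows. The 2 H2B rows, uc063miy.1 and uc003niv.4, form another such group. The rows also make up the class sums, so this count is not separate evidence. The ratio was noticed in these data and rests on 1 QTRT1 library, so it was not tested.

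**Figure D4:**
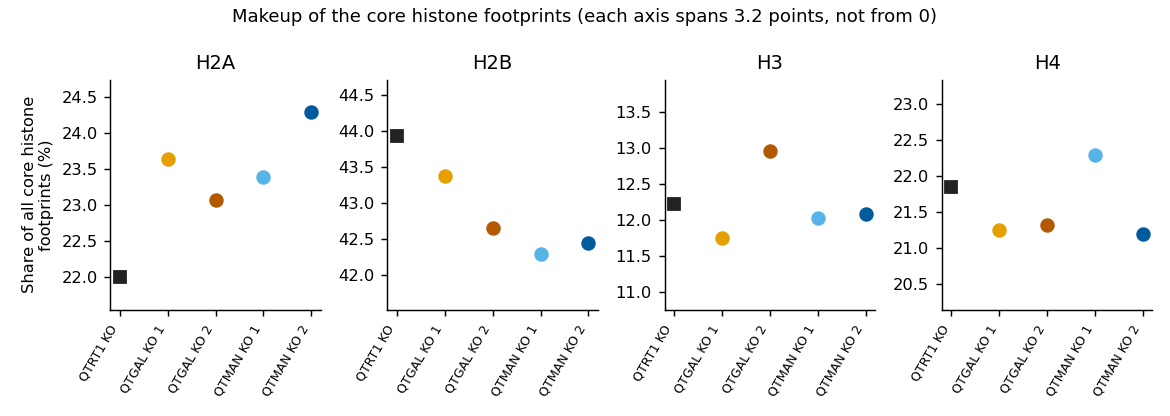
Share of each class in all core histone counts of a library (y axis, percent, spanning 3.2 points in each panel and not starting at 0); the square is QTRT1 knockout and circles are the replicates of QTGAL and QTMAN knockout. The QTRT1 library has the lowest H2A share, 22.0%, and the highest H2B share, 43.9%.

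H3 and H4 shares showed no such order. H3 made up 12.2% in QTRT1 knockout, 11.7% and 12.9% in the 2 QTGAL libraries and 12.0% and 12.1% in the 2 QTMAN libraries. H4 made up 21.8% in QTRT1 knockout, 21.2% and 21.3% in the 2 QTGAL libraries and 22.3% and 21.2% in the 2 QTMAN libraries. The counts of H2A and H2B together were 1.94 times those of H3 and H4 in QTRT1 knockout, 1.98 ± 0.0806 times in QTGAL and 1.96 ± 0.0651 times in QTMAN knockout (SD, n = 2 each), so the genotypes differed by less than the spread between replicates.

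QTGAL and QTMAN knockout were compared row by row, in a model fitted to all 60966 rows that passed the filter on low counts, which all 62 members did. No core histone row was called at an adjusted p of 0.05, and the background was 0% of all rows tested (percent called, edgeR quasi-likelihood test with Benjamini-Hochberg adjustment). The smallest adjusted p among the members was 0.851. At an unadjusted p of 0.05 there were 0 members, against 6.49% of all rows. DESeq2 also called 0 of the 49 members that received an adjusted p, against 0.284% of all rows that did. The log2 fold change was above 0 in 43 of 62 members, against 50% of all rows, with a median of 0.047 and a median SE of 0.19; over all rows the median was -0.00026. By class the medians were 0.031 for H2A, 0.066 for H2B, 0.0041 for H3 and 0.052 for H4. No member lay higher in both QTGAL libraries than in both QTMAN libraries, against 20.9% of all rows, and 2 lay lower in both, against 15.7%.

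Those 2 rows were uc032wlj.2 and uc063lyi.1, both among the first 3 members, with the lowest log2 fold changes of all 62, -0.27 ± 0.16 and -0.26 ± 0.21 (SE, edgeR adjusted p = 0.851 and 0.895). The highest was that of the H3 row uc003nfp.2, at 119 and 171 CPM in QTGAL replicates 1 and 2 and 102 and 135 CPM in QTMAN replicates 1 and 2. The fit gave 0.27 ± 0.18 on the log2 scale (SE; adjusted p of 0.872 by edgeR), and the groups overlapped. Next came uc003ngz.5, given above, at 0.22 ± 0.42 (SE, edgeR adjusted p = 0.965).

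The direction of this comparison hung on single libraries. The median log2 fold change over the members was 0.27 without QTGAL replicate 1 and 0.36 without QTMAN replicate 2, but -0.20 without QTGAL replicate 2 and -0.19 without QTMAN replicate 1. Without QTMAN replicate 2, 4 rows were called higher in QTGAL knockout, where 0.855% of all rows tested were called: uc003nfp.2 and uc003njm.4 (H3 length) and the near-identical uc063miy.1 and uc003niv.4 (H2B length). Without QTGAL replicate 2, uc003ngz.5 and uc003nha.3 were called lower, by -1.09 and -2.19, where 0.117% of all rows were called. These fits leave a lone library in a genotype, which is assumed to vary like the others.

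**Figure D5:**
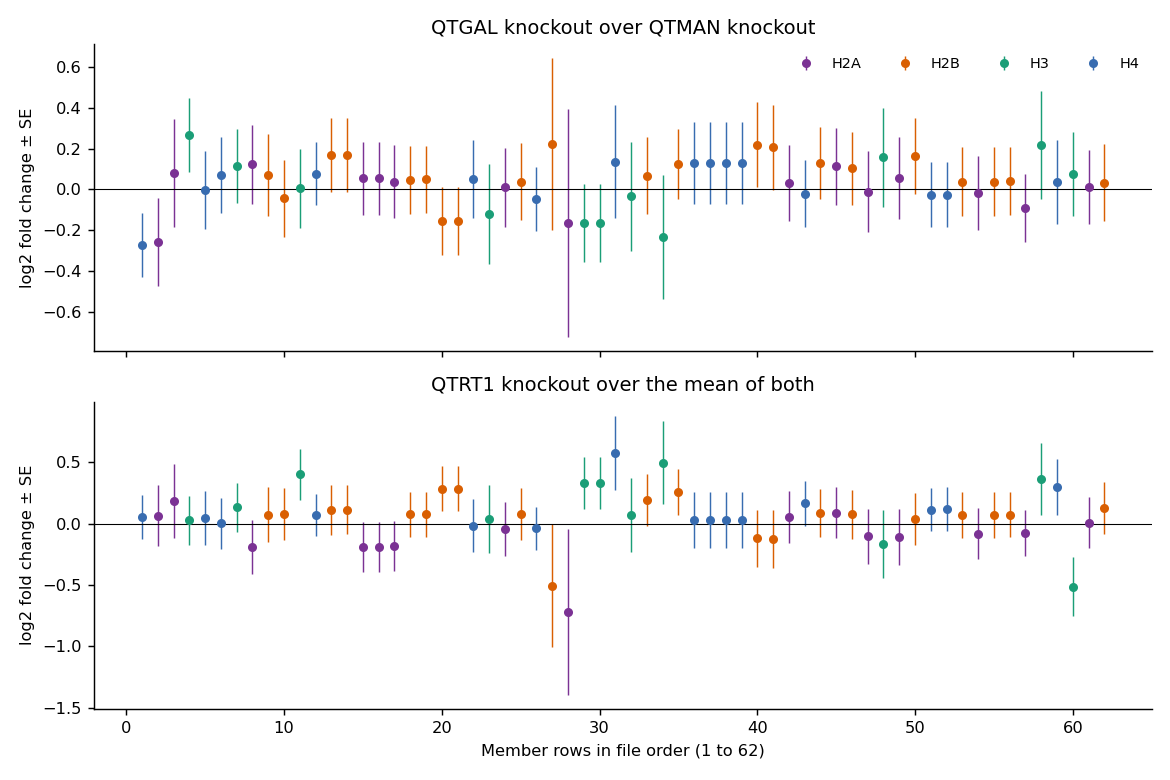
Log2 fold change with its SE (y axis) of each of the 62 rows in file order (x axis), for QTGAL over QTMAN knockout (upper panel) and QTRT1 knockout over the mean of both (lower panel), coloured by class. No row was called in either panel, and the medians are 0.047 and 0.068.

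The QTRT1 library was compared with the mean of QTGAL and QTMAN knockout in the same fit. With 1 QTRT1 library its spread was not measured and is assumed to be that of the other genotypes. Again no member was called, where 0.161% of all rows were (edgeR quasi-likelihood test). In that test 0 members had an unadjusted p under 0.05, against 11.2% of all rows. DESeq2 called 0 of the 55 members with an adjusted p, against 0.804% of all rows with one. The log2 fold change was above 0 in 45 of 62 members, against 49.7% of all rows, with a median of 0.068 and a median SE of 0.21; over all rows the median was -0.0021. H2A differed in sign from the other classes, with 5 of 15 rows above 0 and a median of -0.081, against 18 of 21 and 0.076 for H2B, 9 of 11 and 0.13 for H3, and 13 of 15 and 0.046 for H4. The difference between classes was not tested. In the class sums the log2 difference was -0.034 for H2A, or -0.0092 with 1 row per group of near-identical rows. Without QTGAL replicate 1 it was -0.14 for H2A, -0.0025 for H2B, -0.082 for H3 and -0.028 for H4. Without QTGAL replicate 2 the values were 0.075, 0.22, 0.22 and 0.21. All classes were also negative without QTMAN replicate 1 and positive without QTMAN replicate 2. Under each of these omissions H2A was lowest but shared the sign of the others. The QTRT1 library lay above all 4 others in 11 members (17.7%, against 26.5% of all rows) and below them in 1 (1.61%, against 22.6%).

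The single row below all 4 was the H3 row uc003nka.4, at 62.7 CPM in QTRT1 knockout, 76.0 and 107 CPM in QTGAL replicates 1 and 2, and 67.2 and 102 CPM in QTMAN replicates 1 and 2. The fit gave -0.51 ± 0.24 on the log2 scale (SE; adjusted p of 0.456 by edgeR, the smallest among the members). The largest positive value was that of the lowest H4 row, uc003nhe.2, at 6.47 CPM in QTRT1 knockout, 5.33 and 3.50 CPM in the 2 QTGAL libraries and 3.02 and 4.94 CPM in the 2 QTMAN libraries. The fit gave 0.57 ± 0.30 on the log2 scale (SE; adjusted p of 0.515 by edgeR). The QTRT1 value was the highest of the 5, on counts of 42 to 125 a library. The row uc003nhi.4 followed at 0.50 ± 0.34 (SE, edgeR adjusted p = 0.622).

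The lowest log2 fold change of this comparison was that of uc003nha.3, -0.72 ± 0.68 (SE, edgeR adjusted p = 0.740), whose spread over QTGAL libraries is given above. It was called without QTGAL replicate 1 (-1.16), where 0.161% of all rows were called, and without QTMAN replicate 2 (-0.68), where 2.43% were, a larger share than 1 of 62 members. Its sign turned without QTGAL replicate 2 (0.30). The median over the members was -0.049 without QTGAL replicate 1 and -0.054 without QTMAN replicate 1, and 0.19 and 0.22 without QTGAL replicate 2 and QTMAN replicate 2.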

How the data were processed

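Per the labels' protocols, ribosomes of RNase I treated extracts were pelleted, fragments of 17 to 34 nt were cut from a gel and ribosomal RNA was depleted. Per the submitters' processing notes, bcl2fastq 2.19, CASAVA and STAR 2.7.0a were used with hg38. Not given in the sources used here: annotation, counter, strand setting, and what was done with footprints that match several genes. The deposited tables hold, per the file values, raw footprint counts per transcript and a length (other than a count) read here as codons. No molecular identifiers are mentioned, so precision covers reads.

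Counts were tested with edgeR 4.0.16 in R 4.3.3: filterByExpr, TMM (factors 0.967 to 1.02), quasi-likelihood test, 1 mean per genotype over all 5 libraries (2 residual degrees of freedom), Benjamini-Hochberg over 60966 rows. The SE is the log2 fold change over the square root of F. The scripts were tested on simulated data. DESeq2 1.42.0, other size factors and filters, leaving out each library and a replicate block were alternatives. CPM is counts over the library total times 1000000. Named rows are the highest and lowest sum of each class (of identical rows the first) and the 2 highest and 2 lowest log2 fold changes of each comparison; others were named after their values were seen. The rows and lists were chosen with earlier results of these data known. No sequence is printed, as the rows are not paired with genes. Gene-based checks of the knockouts and of the cell type were not run for that reason.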

Additional observations from a re-analysis of the deposited data

How the results depend on the processing

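The count of core histone rows called stayed at 0 in both comparisons with DESeq2, RLE or no size factors, no filter, a filter of 5 CPM in 2 libraries, and 1 row of each set of adjacent identical rows. Few rows of any kind were called under these settings. Of all rows with an adjusted p, 0% to 0.355% were called for QTGAL against QTMAN and 0.0511% to 1.46% for QTRT1 against both. Leaving out 1 library gave 0 to 4 calls for QTGAL against QTMAN and 0 to 1 for QTRT1 against both, where 0% to 0.855% and 0.161% to 2.43% of all rows were called, the cause of which was not tested. Over the same fits the log2 fold change ran from -1.09 to 0.95 for uc003ngz.5 and from -0.035 to 0.53 for uc003nfp.2 in the first comparison, and from -1.16 to 0.30 for uc003nha.3 in the other; the sign turned without QTGAL replicate 2 in all 3. With the replicate number as a block, 0 members and 0% of all rows were called for QTGAL against QTMAN. The median log2 fold change over the members was then 0.065 and that of uc003ngz.5 was -0.015. The replicate numbers are those of the accession order. The sample titles carry 2 numbers whose meaning is not given, and these were not used. Differences between replicate numbers correlated at r = 0.174 between the genotypes across 60966 rows. With 2 pairs and no label of known meaning this does not pair the libraries. The sum over the members gave log2 differences of 0.078 to 0.10 for QTGAL over QTMAN and 0.047 to 0.069 for QTRT1 over both under the settings that keep every library, 2 of which were added after the data were seen. Leaving out 1 library gave -0.15 to 0.34 and -0.055 to 0.19: the sign of the first turned without QTGAL replicate 2 or QTMAN replicate 1, and that of the other without QTGAL replicate 1 or QTMAN replicate 1.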
